A study of Homo sapiens with 6 samples.

Results

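CHRDL1, FST and SOST encode secreted proteins that hold signals of the BMP, activin and Wnt families back outside the cell, and their signals were followed in MDA-MB-231-Luc-D3H1 cells with and without short hairpin RNAs against the long noncoding RNA LincIN. These are 3 of the 14884 genes that the array annotation names, each with 1 probe set, among 16098 named probe sets and 53617 in all. The genes were chosen by their measured differences between the shRNA and vector arrays, with these data in view. Their levels and their differences from vector are therefore a description, given without a test. MDA-MB-231 is an established human cell line from a triple-negative breast cancer, and the derivative used here carries luciferase. The groups were stable lines with the empty GFP vector (which carries no hairpin), with shRNA1 or with shRNA2, each with 2 Affymetrix Human Gene 2.0 ST arrays, 6 arrays in all. The RNA came from 2 independent experiments per the series text, and the sources used here do not say whether a line was a pool or a clone. Values are log2 signals after RMA, a method that corrects the background, normalizes across arrays and summarises the probes of a probe set, so a difference of 1 is a doubling. LincIN had no named probe set, and the unnamed probe sets were not searched for it by position. Its knockdown was therefore not read from the arrays, and the labels alone were used to say which line is which. In bulk RNA, fewer cells that express a gene and less RNA per cell cannot be told apart.

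By the array labels, CHRDL1 and FST were lower and SOST was higher in both lines labelled shRNA than in the line labelled vector. For FST and SOST this direction is opposite to that printed in the study's own gene table, as it is for other genes of that table. No LincIN signal was read here, so this was not settled. The readings of CHRDL1 with the 2 shRNAs overlapped, while those of FST were lower and those of SOST higher with shRNA2 than with shRNA1, and no member passed the threshold between the shRNAs. Bone morphogenetic proteins (BMPs) and activins are secreted ligands of the TGF-beta superfamily, which act through pairs of receptor kinases and SMAD proteins. Wnt proteins act through Frizzled receptors together with LRP5 or LRP6 and stabilise beta-catenin. Secreted antagonists bind the ligand or the receptor and so set how much signal reaches the cell. CHRDL1 (chordin like 1) binds BMPs, with BMP4 as its best known partner. FST, follistatin, binds activins almost irreversibly and also binds some BMPs and myostatin. SOST encodes sclerostin, which binds LRP5 and LRP6 and is known as a product of osteocytes that restrains bone formation.

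The genes lie on different chromosomes. In the RefSeq gene table (GRCh38.p14), CHRDL1 lies at chrX:110673856-110795817, FST at chr5:53480629-53487134 and SOST at chr17:43753738-43758791. The 250 bases before each annotated start are shown so that the promoters of the falling and the rising genes can be set side by side. They are from RefSeq, read 5′ to 3′ on the strand of the gene, and are chrX:110795818-110796067 (minus strand) for CHRDL1, chr5:53480379-53480628 (plus strand) for FST and chr17:43758792-43759041 (minus strand) for SOST. Capitals mark CACCTG or its complement CAGGTG, a form of the E-box, and TTTAAA, an A/T-rich hexamer that is its own complement.
CHRDL1: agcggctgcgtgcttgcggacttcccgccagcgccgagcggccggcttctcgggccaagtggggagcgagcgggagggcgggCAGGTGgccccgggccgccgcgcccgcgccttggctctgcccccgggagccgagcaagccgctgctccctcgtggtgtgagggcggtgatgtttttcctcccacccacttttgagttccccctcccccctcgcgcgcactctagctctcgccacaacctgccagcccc
FST: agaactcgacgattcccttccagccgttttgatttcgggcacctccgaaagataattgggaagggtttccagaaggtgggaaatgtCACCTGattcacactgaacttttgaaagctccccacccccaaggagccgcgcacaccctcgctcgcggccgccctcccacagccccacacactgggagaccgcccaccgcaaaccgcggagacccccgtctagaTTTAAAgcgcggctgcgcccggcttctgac
SOST: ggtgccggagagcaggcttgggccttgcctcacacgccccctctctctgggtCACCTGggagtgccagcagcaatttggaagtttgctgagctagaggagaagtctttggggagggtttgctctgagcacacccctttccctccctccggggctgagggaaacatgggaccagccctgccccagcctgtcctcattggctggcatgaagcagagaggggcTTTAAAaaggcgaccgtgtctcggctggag
Both hexamers were picked after the sequences had been read. CACCTG was found once in each of the 3 promoters on either strand, beginning 168, 164 and 198 bases before the start for CHRDL1, FST and SOST. Of 35116 promoters in the table, 17.5% held it in the same window. TTTAAA began exactly 30 bases before the start in both FST and SOST and was not found for CHRDL1. It was present in 11.3% of all promoters, and in 1.23% it began 25 to 35 bases before the start. The GC box GGGCGG was found 2 times for CHRDL1, 2 times for FST and 0 times for SOST (42.6% of promoters), and CCAAT once for FST and once for SOST (32.0%). TATAAA (10.7%), the SMAD box CAGAC (38.0%), GGCGCC (16.4%) and the TCF/LEF core CTTTGA (11.2%) were not found in these windows on either strand. The promoters also differed in CpG content, with 27 CpG dinucleotides for CHRDL1, 20 for FST and 6 for SOST against a median of 11 over all promoters. These matches describe letters and do not show binding.

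CHRDL1 had log2 signals of 8.12 and 7.73 in the vector arrays, 5.73 and 5.62 with shRNA1, and 5.64 and 5.83 with shRNA2. The 4 shRNA arrays lay close together and far below both vector arrays, with a gap of 1.89 between the nearest shRNA2 and vector values and of 2.00 for shRNA1. Set against vector, the log2 difference was -2.25 for shRNA1 (4.75-fold lower) and -2.19 for shRNA2 (4.55-fold lower), each with a standard error of 0.18 from a joint fit of all arrays. Signed values here and below follow the array labels. The shRNA readings lay below the median of all probe set means, which was 6.18, and the values carry no detection call. The level left with shRNA may therefore lie in the background, in which case the folds understate the difference. By replicate number, the differences were -2.39 and -2.10 with shRNA1, and -2.48 and -1.89 with shRNA2. Among all named probe sets, CHRDL1 had the 34th lowest difference with shRNA1 and the 28th lowest with shRNA2. Both comparisons use the same vector arrays, so their values are not independent.

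FST had the log2 signals 11.08 and 10.87 in vector cells, 9.75 and 9.50 with shRNA1, and 9.12 and 9.12 with shRNA2. The groups did not overlap and stepped down from vector to shRNA1 to shRNA2. On the log2 scale the FST difference from vector was -1.35 for shRNA1, or 2.55-fold lower, and -1.85 for shRNA2, or 3.61-fold lower, each with a standard error of 0.16. By replicate number the differences were -1.33 and -1.38, and -1.95 and -1.75. The shRNA2 arrays of FST differed from each other by only 0.00283, whereas the vector arrays differed by 0.201 and the shRNA1 arrays by 0.250. Over all named probe sets too, the SD of the difference between replicates was smaller with shRNA2 (0.231) than in vector (0.397) or shRNA1 cells (0.395).

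SOST moved the other way, with log2 signals of 6.76 and 6.40 in the vector arrays, 7.96 and 7.50 with shRNA1, and 9.38 and 9.37 with shRNA2. Again the groups did not overlap, here in rising order from vector to shRNA1 to shRNA2. The log2 difference from vector was 1.15 for shRNA1, or 2.22-fold higher, and 2.80 for shRNA2, or 6.94-fold higher, each with a standard error of 0.21. By replicate number the differences were 1.21 and 1.10, and 2.62 and 2.97. With shRNA2 the SOST difference was the 3rd highest of the 16098 named probe sets, and with shRNA1 the 45th. The vector readings of SOST lay a little above the median of all probe set means (6.18), unlike the shRNA readings of CHRDL1. Whether they lay in the background was not tested, as the values carry no detection call. If they did, these folds too understate the difference.

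**Figure D1:**
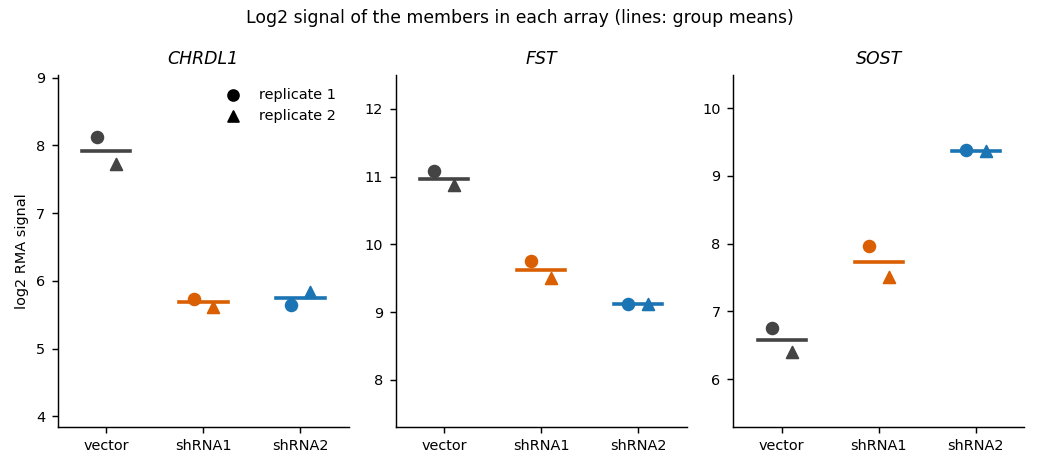
Log2 RMA signal (vertical axis, the same span in each panel) of CHRDL1, FST and SOST in the 2 vector, 2 shRNA1 and 2 shRNA2 arrays, with circles for replicate 1, triangles for replicate 2 and lines for group means. CHRDL1 falls from 7.92 to 5.68 and 5.74, FST from 10.97 to 9.62 and 9.12, and SOST rises from 6.58 to 7.73 and 9.37.

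Groups that do not overlap are common among pairs of arrays. CHRDL1 and FST lay below the vector arrays with both shRNAs, as did 10.1% of the named probe sets, and SOST lay above them with both, as did 9.77%. For shRNA1 alone, 15.0% of the named probe sets were below and 21.7% above without overlap, and for shRNA2 alone 30.6% and 21.6%. At an adjusted p under 0.05 in limma (Benjamini-Hochberg over the named probe sets), 1.37% were lower and 0.497% higher with shRNA1, and 1.50% and 1.07% with shRNA2. When the replicate numbers were treated as pairs, the total of 301 probe sets for shRNA1 became 535, and that of 414 for shRNA2 became 1180. Since the members were chosen on these contrasts, nothing is read from their place within these shares.

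The direct contrast of shRNA2 with shRNA1 compared the levels of the shRNA lines. Each hairpin is represented by 1 stable line, so a difference between hairpins and a difference between lines cannot be told apart. For SOST, shRNA2 was higher by 1.64 on the log2 scale (95% interval 1.15 to 2.13), or 3.12-fold, with an adjusted p of 0.0584 in limma, which became 0.0116 in the fit blocked by replicate number. For FST, the difference was -0.50 (interval -0.89 to -0.12, adjusted p = 0.223). For CHRDL1, it was 0.06 (interval -0.37 to 0.49, adjusted p = 0.904), so the interval held differences of either sign, between readings that could not be told from background. In this contrast 1 probe set of all those named was lower with shRNA2 at the threshold (0.00621%) and 0 were higher (0%), while 2507 had an unadjusted p under 0.05. The blocked fit gave 370. With 1 array left out, the adjusted p of SOST lay between 0.0749 and 0.578, the latter without shRNA2 replicate 2. The intervals are per gene and were not widened for the choice of the genes.

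The other antagonists and related inhibitors, not all of them secreted, were set beside the shares of all named probe sets past the threshold. These were 0.497% higher and 1.37% lower with shRNA1, and 1.07% higher and 1.50% lower with shRNA2. With lists this short, the small counts are not read as a result about the antagonists. Of 37 other measured genes on the lists of BMP, activin and TGF-beta, and Wnt antagonists, 1 passed the threshold with each shRNA, and it rose with both. It was APCDD1L, a paralogue of the Wnt inhibitor APCDD1, with log2 signals of 7.53 and 7.30 in vector, 10.03 and 9.72 with shRNA1, and 9.31 and 9.00 with shRNA2. Its differences from vector were 2.46 (adjusted p = 0.00267) and 1.74 (adjusted p = 0.00756), and the call with shRNA2 was lost without shRNA2 replicate 1 or 2 (adjusted p up to 0.118). The differences of the 37 ran from -0.70 for NOG to that of APCDD1L with shRNA1 (median 0.04), and from -0.67 for IGFBP4 to that of APCDD1L with shRNA2 (median -0.18). With shRNA1, 11 of the 37 (29.7%) lay above both vector arrays and 7 (18.9%) below. The shares over all named probe sets were 21.7% and 15.0%. With shRNA2, 7 (18.9%) lay above and 15 (40.5%) below, against 21.6% and 30.6% of all named probe sets.

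By family, 0 of 10 other BMP antagonists passed with either shRNA, with medians of 0.13 and -0.25 against 0.05 and -0.04 over all named probe sets. CRIM1, a transmembrane protein that binds BMPs and had the highest mean on that list, was at -0.64 and -0.56 (adjusted p = 0.239 and 0.206). NOG, noggin, which sequesters BMPs, was at 9.35 and 10.39 in the vector arrays, so its replicates differed by more than its group means, and its differences of -0.70 and -0.37 did not pass (adjusted p = 0.532 and 0.663). On the list of activin and TGF-beta antagonists, 0 of 10 passed, with medians of -0.05 and -0.08. FSTL1, follistatin like 1, was at -0.16 and 0.30 (adjusted p = 0.756 and 0.323), and FSTL3, the closest relative of FST in activin binding, at -0.04 and -0.44 (adjusted p = 0.954 and 0.166). BAMBI, a pseudoreceptor that blunts BMP and TGF-beta signals, was at 0.59 and 0.86 (adjusted p = 0.410 and 0.128, the latter 0.0257 in the blocked fit). Of 18 other Wnt antagonists, APCDD1L was the 1 that passed, and the medians were 0.04 and -0.17. DKK1, which like sclerostin binds LRP5 and LRP6, was at -0.47 and -0.33 (adjusted p = 0.479 and 0.494). NOG, FSTL3, BAMBI and DKK1 were named after their values had been seen.

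**Figure D2:**
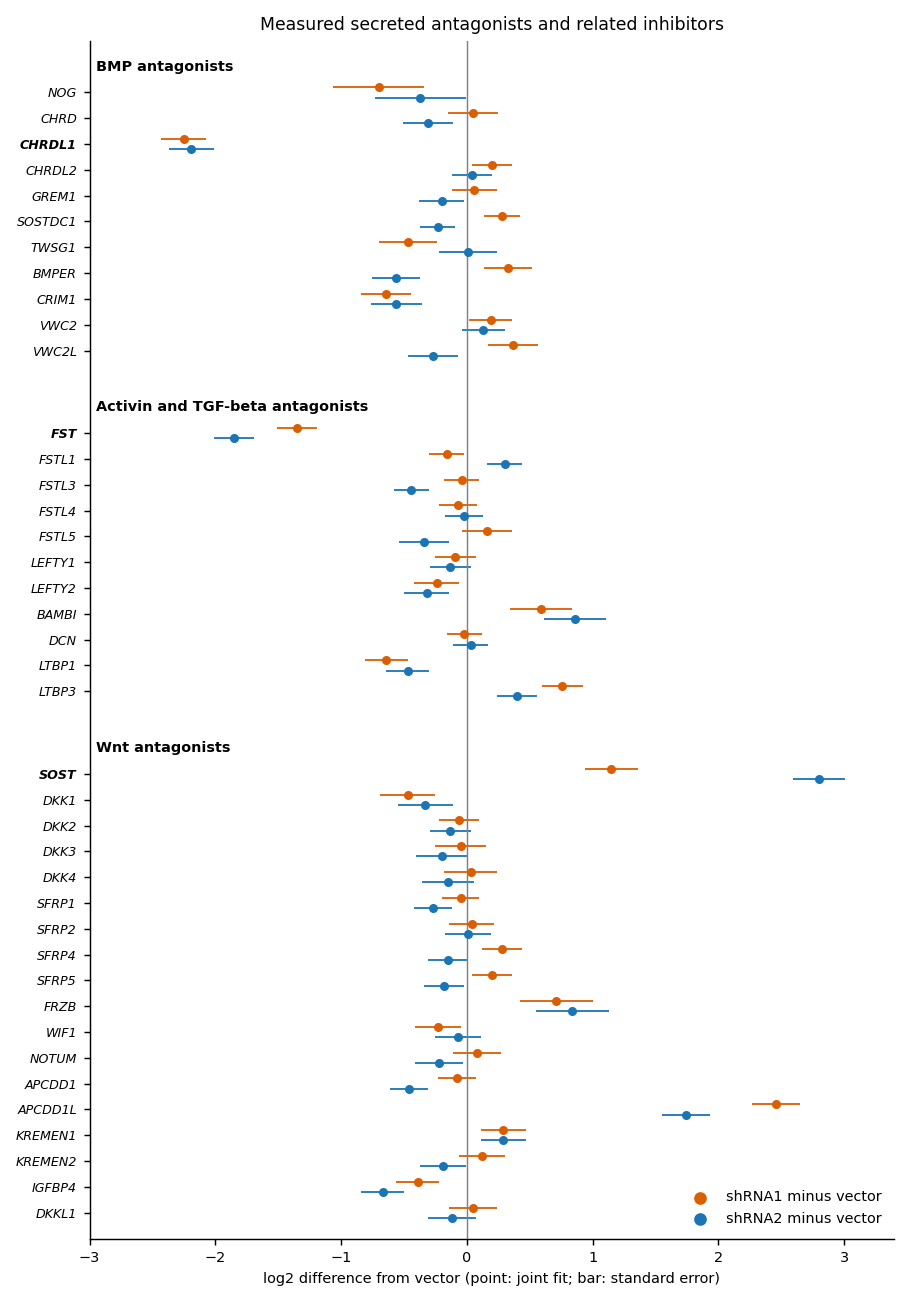
Log2 difference from vector (horizontal axis; points from the joint fit, bars the standard error) for the 40 measured genes of the antagonist lists, shRNA1 in orange and shRNA2 in blue, with CHRDL1, FST and SOST in bold. CHRDL1 and FST lie at -2.25 to -1.35, SOST at 1.15 and 2.80 and APCDD1L at 2.46 and 1.74, while the other genes lie within -0.70 to 0.86.

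The rest of the pathways was read from lists of ligands, receptors, SMADs and target genes. Over all 12 lists, 128 of 188 genes other than CHRDL1, FST and SOST had a named probe set. With shRNA1, 5 rose (3.91%) and 4 fell (3.12%), and with shRNA2 4 rose (3.12%) and 5 fell (3.91%). Over all named probe sets, 0.497% rose and 1.37% fell with shRNA1, and 1.07% rose and 1.50% fell with shRNA2. An unadjusted p under 0.05 was found for 26.6% of the pathway genes with each shRNA, against 12.1% of all named probe sets with shRNA1 and 18.6% with shRNA2. The blocked fit gave 14 calls with each shRNA in place of 9 and lost 0 of the 9. With shRNA1 it added LTBP3 (0.76), SMAD6 (0.89), FZD4 (-0.73), LGR5 (-0.82) and FOSL1 (0.73), at adjusted p of 0.0385, 0.0242, 0.0437, 0.0312 and 0.0438 in limma. With shRNA2 it added BAMBI (0.86), IGFBP4 (-0.67), BMP2 (-0.77), SMAD6 (0.83) and LGR5 (-0.89), at adjusted p of 0.0257, 0.0355, 0.0253, 0.0242 and 0.0185. The median difference was 0.07 and -0.13, against 0.05 and -0.04 over all named probe sets. Several of these genes were known from earlier results of the same arrays when the lists were written, so the counts are not independent evidence. In the direct contrast 0 of the 128 passed in limma, 24 had an unadjusted p under 0.05, and 3 passed in the blocked fit (GDF15, SMAD3 and APCDD1L).

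Of 19 BMP and GDF ligands, GDF15 and BMP5 passed. Against this stand the shares of all named probe sets, 0.497% rising and 1.37% falling with shRNA1. For shRNA2 these shares were 1.07% and 1.50%. GDF15, a stress-induced ligand, had log2 signals of 8.67 and 8.83 in vector, 7.53 and 7.22 with shRNA1, and 8.69 and 8.50 with shRNA2. It fell by 1.38 with shRNA1 (adjusted p = 0.0118, and up to 0.0671 with 1 array left out) and was at -0.15 with shRNA2 (adjusted p = 0.710). The shRNAs differed by 1.22 (adjusted p = 0.0612, and 0.0192 in the blocked fit). BMP5 was at 5.74 and 5.39 in vector, 6.76 and 6.46 with shRNA1, and 6.80 and 6.76 with shRNA2. It rose by 1.05 and 1.22 (adjusted p = 0.0425 and 0.0227). BMP4, the ligand that CHRDL1 is best known to bind, was at 12.33 and 12.32 in vector, with differences of 0.19 and 0.21 (adjusted p = 0.716 and 0.517). The medians of the ligand list were 0.02 and -0.13.

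Coverage of the activin side was thin. The list of activin and TGF-beta ligands had 3 of 10 genes measured, the receptor list 4 of 17 and the list of Wnt ligands 5 of 23, and 0 genes of these lists passed with either shRNA. The medians were -0.02 and -0.40, -0.07 and -0.11, and 0.23 and 0.03 in that order. GDF11, an activin-like ligand that follistatin can bind, was at -0.53 and -0.44 (adjusted p = 0.460 and 0.395). NEO1, neogenin, a receptor for the repulsive guidance molecules, which are BMP co-receptors, was at -0.43 and -0.39 (adjusted p = 0.397 and 0.306). RSPO4, which enhances Wnt signals, was at 0.11 and -0.27 (adjusted p = 0.900 and 0.510). Of 13 SMADs and regulators 0 passed (medians 0.12 and -0.16), and SMURF2, a ubiquitin ligase of SMADs and receptors, was at -0.12 and 0.13 (adjusted p = 0.828 and 0.709).

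Among Wnt receptors, all 22 listed genes were measured, with 2 higher and 1 lower with shRNA1, and 2 higher and 3 lower with shRNA2 (medians 0.10 and 0.03). The background shares with shRNA1 were 0.497% rising and 1.37% falling over all named probe sets. With shRNA2 they were 1.07% rising and 1.50% falling. The list was written with earlier results of these arrays known, so its counts are not independent evidence. RNF43, a ubiquitin ligase that removes Frizzled receptors and is itself a Wnt target, was at 7.34 and 7.42 in vector, 8.97 and 8.75 with shRNA1, and 8.62 and 8.62 with shRNA2. It rose by 1.48 and 1.24 (adjusted p = 0.00574 and 0.0104). FZD7, a Frizzled receptor, was at 9.18 and 9.22 in vector, 10.62 and 10.45 with shRNA1, and 9.95 and 9.98 with shRNA2. It rose by 1.34 and 0.77 (adjusted p = 0.00676 and 0.0471). PTK7, a co-receptor of noncanonical Wnt signals, fell, with differences of -1.14 and -1.31 (adjusted p = 0.0394 and 0.0211). Among the partners of sclerostin, LRP6 was at 9.92 and 9.99 in vector, 9.45 and 9.34 with shRNA1, and 9.25 and 9.17 with shRNA2. Its difference was -0.56 with shRNA1 (adjusted p = 0.149), and it fell by 0.75 with shRNA2 (adjusted p = 0.0491, 0.390 at most with 1 array left out, and lost with quantile normalization). LRP5 was at 0.08 and 0.33 (adjusted p = 0.924 and 0.424) and LRP4, which anchors sclerostin in bone, at 0.11 and 0.05 (adjusted p = 0.876 and 0.906). FZD4, another Frizzled receptor, was at -0.73 with shRNA1 (adjusted p = 0.108, and 0.0437 in the blocked fit) and fell by 1.04 with shRNA2 (adjusted p = 0.0291).

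The target lists were read against the same shares of all named probe sets. Of 13 BMP target genes, 1 rose with shRNA1 and 0 changed with shRNA2 in limma, with medians of 0.26 and 0.37. The 1 was RUNX2, the transcription factor of osteoblast fate, at 7.96 and 7.68 in vector, 8.85 and 8.68 with shRNA1, and 8.35 and 8.25 with shRNA2, with differences of 0.95 (adjusted p = 0.0424) and 0.48 (adjusted p = 0.182). SMAD6, an inhibitory SMAD that BMPs induce, was at 0.89 and 0.83 (adjusted p = 0.0586 and 0.0564, and 0.0242 for each in the blocked fit) and was named after its values had been seen. Of 9 activin and TGF-beta target genes, 2 fell with each shRNA, where 1.37% and 1.50% of all named probe sets fell (medians 0.12 and -0.32). They were IL11, a cytokine, at -1.13 and -1.31 (adjusted p = 0.0158 and 0.00874), and CCN2, a matrix-associated growth factor, at -1.40 and -0.88 (adjusted p = 0.00918 and 0.0468). A second, dimmer probe set of CCN2 gave -2.68 (adjusted p = 0.0424) and -0.03 (adjusted p = 0.984), so the probe sets disagreed for shRNA2. Of 15 Wnt target genes, RNF43 was the 1 that passed, and it rose with both shRNAs (medians 0.08 and -0.08). AXIN2, the most widely used Wnt target, was at 0.09 and 0.04 (adjusted p = 0.906 and 0.939) and was likewise named after its values had been seen. With 1 array left out at a time, APCDD1L, FZD7 and RNF43 kept their calls with shRNA1 in all 6 fits, and the other 6 genes lost theirs in 3 to 6 fits, with adjusted p up to 0.176. The 9 calls with shRNA2 ended without shRNA2 replicate 1 or 2, when 0 of the 128 passed in limma and 21 or 18 had an unadjusted p under 0.05.

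**Figure D3:**
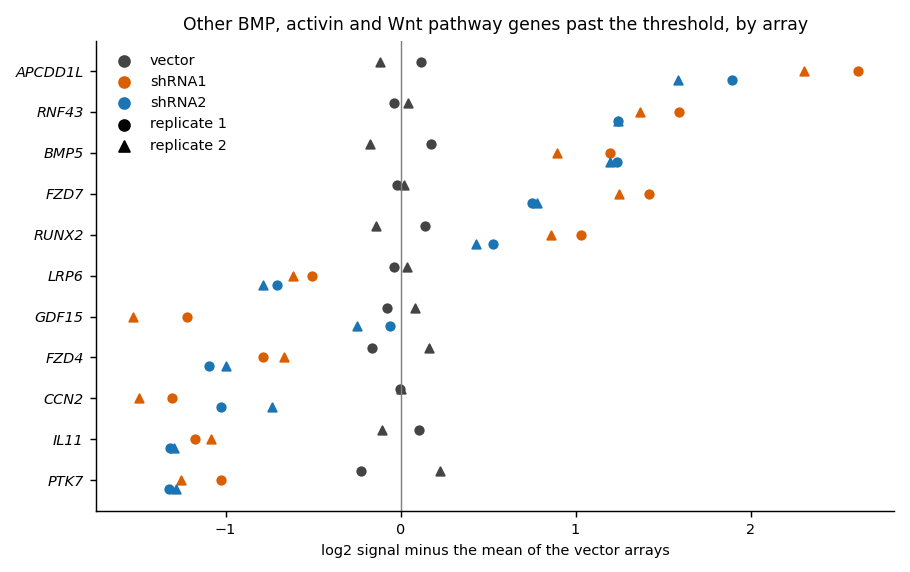
Log2 signal minus the mean of the vector arrays (horizontal axis) in each array for the 11 pathway genes past the threshold with at least 1 shRNA, with grey for vector, orange for shRNA1, blue for shRNA2, circles for replicate 1 and triangles for replicate 2. APCDD1L, RNF43 and BMP5 lie above both vector arrays with both shRNAs, while GDF15 lies below them with shRNA1 (-1.38) and overlaps them with shRNA2 (-0.15).

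Across the 6 arrays, the members correlated at r = 0.955 for CHRDL1 with FST, -0.770 for CHRDL1 with SOST and -0.903 for FST with SOST. These values describe 6 arrays in 3 groups, and the genes were chosen for how they differ between the groups. Among the 2433 named probe sets that ranged over at least 1 on the log2 scale, the profile of SOST was most like those of MKX (r = 0.999), DGCR5 (0.998), SORBS2 (0.996), PHGDH (0.992) and LONRF2 (0.989). MKX, mohawk, a homeobox factor of tendon, rose from 6.71 in vector to 7.33 with shRNA1 and 8.23 with shRNA2 on average. PHGDH, which opens serine synthesis, rose from 8.08 to 8.80 and 9.72. FST was most like CST2 (0.993), PDPR (0.992), SUSD5 (0.991), ADGRV1 (0.990) and IGFBPL1 (0.990). CST2, a secreted cystatin, went from 9.22 to 8.32 and 7.98. CHRDL1 was most like ZNF704 (0.998), LOC283299, OLR1, UST and CLDN1 (0.997 each), whose levels with shRNA1 and shRNA2 lay close together. OLR1, a receptor for oxidized lipoprotein, went from 8.13 to 4.42 and 4.44, and CLDN1, a tight junction protein, from 8.37 to 6.02 and 5.91.

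**Figure D4:**
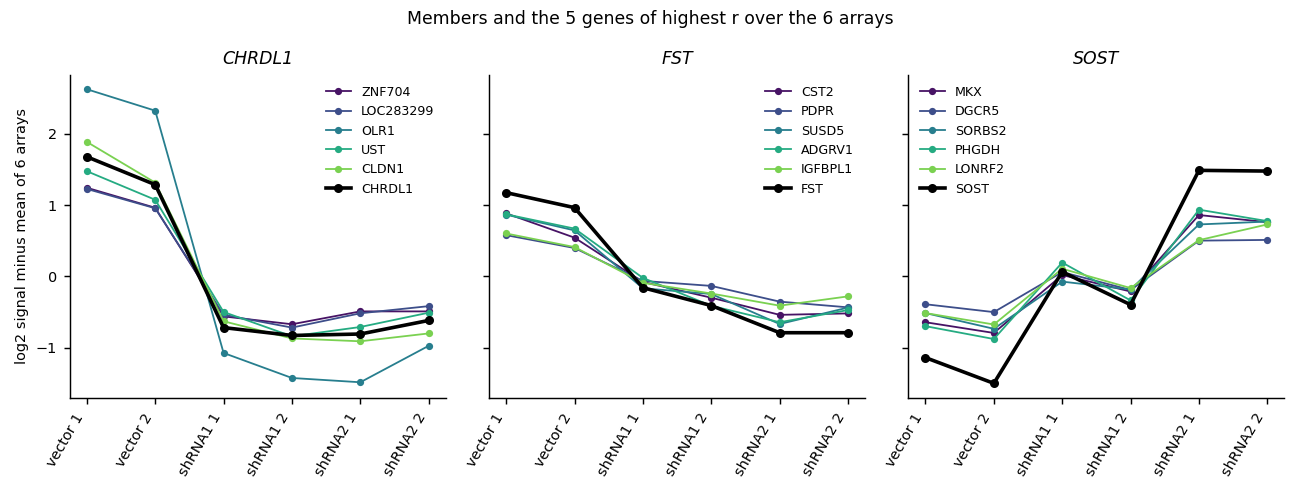
Log2 signal minus each gene's mean over the 6 arrays (vertical axis) along the arrays (horizontal axis), for each member in black and the 5 genes with the highest Pearson r in colour. CHRDL1 and its closest profiles show 1 step between vector and shRNA arrays, whereas SOST steps up again from shRNA1 (7.73) to shRNA2 (9.37).

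The measured genes next to the members along the chromosome mostly gave small differences. On either side of CHRDL1, RTL9 was at 0.36 and -0.17 (218 kb away, adjusted p = 0.645 and 0.764) and CAPN6 at 0.17 and -0.13 (adjusted p = 0.834 and 0.795), with TMEM164 and DCX beyond them also short of the threshold. DUSP3, a phosphatase gene 7.33 kb from SOST, was at -0.58 and -0.41 (adjusted p = 0.125 and 0.182), and MEOX1, 91.8 kb to the other side, at 0.23 and 0.03 (adjusted p = 0.671 and 0.957). ETV4 and CD300LG, the next measured genes, did not pass either. Near FST, MOCS2 was at -0.02 and 0.01 (adjusted p = 0.980 and 0.982), and ARL15, a small GTPase gene 397 kb away, fell by 0.99 with shRNA1 (adjusted p = 0.0287) and was at -0.50 with shRNA2 (adjusted p = 0.148). ISL1 did not pass. MIR581, which lies within ARL15, did not pass either, at -0.32 and -1.13 (adjusted p = 0.733 and 0.0750 in limma).

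The arrays held 53617 values each, with array medians of 6.12 to 6.30. Of the marker lists, 6 of 10 mesenchymal breast line markers were measured, with medians of 11.23 to 11.79 over the arrays, and 0 changed. Of 9 luminal markers (medians 7.28 to 8.18), 3 fibroblast markers (5.15 to 5.84) and 4 hematopoietic markers (6.35 to 6.54), 0 changed with either shRNA in limma. Of 6 osteocyte and osteoblast markers (medians 5.15 to 5.33), 1 rose with shRNA1, RUNX2, where 0.497% of all named probe sets rose. Of 6 endothelial markers (5.84 to 6.56), 2 fell with both shRNAs, where 1.37% and 1.50% of all named probe sets fell. They were KDR (-1.52 and -1.54, adjusted p = 0.0125 and 0.0123) and ESAM (-2.80 and -2.96, adjusted p = 0.00465 and 0.00485). The medians hide bright single markers, such as ESAM at 10.65 and the hematopoietic marker CD68 at 11.55 on average in vector. Whether other cells had a part in the values of the members was not tested.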

How the data were processed

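The members and the gene lists were chosen with earlier results of these data known, and genes of the study's own table were among them. RNA of 3 groups with 2 arrays each was labelled from 250 ng. The authors deposited log2 values, made with the Affymetrix Expression Console and RMA per the methods and labels, with no version given. These were used as deposited. The probe annotation named 16098 of 53617 probe sets with exactly 1 symbol (14884 genes), and 37519 stay unnamed here. Group means of all 6 arrays were fitted together with lmFit and eBayes of limma 3.58.1 in R 4.3.3 (3 residual and 4.16 prior degrees of freedom). Benjamini-Hochberg adjustment was over all 16098, with a threshold of 0.05. Calls were tested on simulated data with independent noise, which does not cover replicates that deviate together. For genes with several probe sets, the one with the highest mean was used. The lists covered antagonists, ligands, receptors, SMADs and targets of BMP, activin, TGF-beta and Wnt signals, and cell type markers. Named were up to 3 called genes per list by size, or else the gene with the highest mean, the 5 most alike profiles by Pearson r, 2 measured neighbours per side, and the ligands and receptors the members bind.

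The labels give equal replicate numbers, and the series text speaks of 2 independent experiments without tying a number to either. Differences between replicates correlated at 0.626 for vector with shRNA1, 0.145 for vector with shRNA2 and 0.150 for shRNA1 with shRNA2. The main fit did not pair the arrays by number. A fit blocked by number was an alternative, on thin ground for shRNA2. It is given where it changes a call among the members and pathway genes. The p-values measure the spread between these arrays. Other alternatives were a fit of the 4 arrays compared, an intensity trend, centred arrays, quantile normalization and leaving out dim probe sets. Further ones were testing all probe sets, an equal-variance t-test and leaving out each array. The t-test was a choice made here, as the array methods of the paper specify none. The array number limits the precision. Python 3.11.15, pandas 2.3.3 and SciPy 1.17.1 did the rest.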

Additional observations from a re-analysis of the deposited data

Results flagged for a closer look

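Among the 128 measured pathway genes, 9 (7.03%) lay on opposite sides of both vector arrays with the shRNAs, against 4.74% (763) of all named probe sets. The direct contrast of shRNA2 with shRNA1 was past the threshold for 0 of them in limma, at adjusted p of 0.123 to 0.444. The log2 difference of shRNA2 from shRNA1 was -0.89 for BMPER, a BMP-binding protein that was at 0.33 with shRNA1 and -0.56 with shRNA2 against vector. It was -0.81 for SMAD3, which carries activin and TGF-beta signals (0.35 and -0.45, and adjusted p = 0.0394 between the shRNAs in the fit blocked by replicate number). It was -0.73 for NODAL, a ligand of the activin type (0.33 and -0.40). A second, dimmer probe set of NODAL overlapped the vector arrays with both shRNAs (0.18 and -0.22), so it did not lie on opposite sides of them. For the antagonists SOSTDC1, SFRP5 and FSTL1 it was -0.50, -0.38 and 0.46. For MSX2 and SNAI2, transcription factors, it was -0.39 and -0.43, and for SMURF2 0.25. CHRDL1, FST and SOST were not among the 9. With 2 arrays per group, a look for single far-off arrays was not possible.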

How the results depend on the processing

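The differences of CHRDL1, FST and SOST from vector kept their sign with arrays centred on their medians, with quantile normalization, with the replicate number as a block and with each array left out. With 1 array left out they ranged from -2.45 to -2.05 and -2.38 to -1.99 for CHRDL1 with shRNA1 and shRNA2, from -1.48 to -1.23 and -1.95 to -1.75 for FST, and from 0.92 to 1.38 and 2.62 to 2.97 for SOST. The differences of CHRDL1 moved most without vector replicate 1 (-2.05 and -1.99) or 2 (-2.45 and -2.38), which differed from each other by 0.397. For shRNA2 against shRNA1, CHRDL1 ranged from -0.03 (without shRNA2 replicate 2, a change of sign) to 0.16, FST from -0.63 to -0.38 and SOST from 1.41 to 1.88. SOST passed with the replicate block alone, at 1.64 (adjusted p = 0.0116), and its adjusted p was 0.0545 to 0.578 in the other alternatives. Elsewhere the block changed no sign of the members. Centring the arrays added 0.10 to each difference of shRNA2 from shRNA1.

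With shRNA1, 301 named probe sets passed, against 111 in the fit of only the 4 arrays compared, 535 with the replicate block, 195 with all probe sets tested, 1 with the methods' t-test and 111 to 138 with 1 array left out, whichever it was. At an unadjusted p under 0.001, the equal-variance t-test gave 38. With shRNA2, 414 passed, against 1180 with the block, 2 with the t-test (65 at an unadjusted p under 0.001) and 6 to 392 with 1 array left out (7 and 6 without shRNA2 replicate 1 and 2, 139 and 150 without vector replicate 1 and 2). The array left alone in its group is then assumed to vary like the other groups. For shRNA2 against shRNA1, 1 passed, against 0 with the 4 arrays compared, 370 with the block, 15 with an intensity trend, 2 with centred arrays, 8 with all probe sets, 2 with the t-test and 0 in each fit with 1 array left out.

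Of the 128 pathway genes, the 9 calls with shRNA1 became 4 with the 4 arrays compared, 14 with the block, 3 with all probe sets, 0 with the t-test and 3 to 5 with 1 array left out. The 9 calls with shRNA2 became 14 with the block, 3 with all probe sets, 0 with the t-test and 0 to 7 with 1 array left out. In the direct contrast, 0 became 3 with the block, namely GDF15, SMAD3 and APCDD1L. Testing all probe sets adjusts over 53617 values, and the fit of 4 arrays has fewer arrays for the spread. The cause of any of these changes was not tested. The block rests on a pairing by number that the labels do not tie to an experiment, and its correlations with shRNA2 were low.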
